A study of Mus musculus with 24 samples.

Results

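The 10 genes described here mark the endothelium, the cell layer that lines the aorta, or are switched on in it when it is activated. They were chosen by name, but with earlier results of these data known, so the choice was not blind to the values. Pecam1, Cdh5 and Vwf were taken as identity genes, and Nos3 and Edn1 as vasomotor genes. Vcam1, Icam1, Sele and Selp were taken as leukocyte adhesion molecules, and Esm1 as a gene of activated, sprouting endothelium. All 10 were on the array, through 13 probes, and all 10 were among the 23506 genes that passed the filter on dim probes. For each gene the brightest probe was used.

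RNA from the aorta of C57BL/6 mice was measured on 24 Agilent arrays in 1 colour, and each of 8 groups had 3 arrays. The groups cross genotype, wild type or IL-17 knockout, with drinking water, plain or with 1% NaCl, and with a continuous infusion for 3 days, of vehicle or of angiotensin II with BAPN. Angiotensin II is a pressor peptide, and BAPN (beta-aminopropionitrile) inhibits lysyl oxidase, the enzyme that cross-links collagen and elastin. All mice ate normal chow, and mice on salt had it before and during the infusion. Below, "infused" means angiotensin II with BAPN, and uninfused groups received vehicle. The design text calls the replicates biological, and the knockout carries the C57BL/6 label too. The labels give neither the age of the mice nor the part of IL-17 that was deleted. The series title asks whether high salt worsens aortic dissection through IL-17.

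Quiescent endothelium carries PECAM-1 and VE-cadherin (the Cdh5 product) at its cell junctions, stores von Willebrand factor and P-selectin in the same granules, and makes nitric oxide through endothelial nitric oxide synthase, the Nos3 product. Inflammatory cytokines and angiotensin II are known to activate it: E-selectin and P-selectin then slow passing leukocytes, and VCAM-1 and ICAM-1 hold them through integrins. Endothelin-1, the Edn1 product, constricts vessels, and endocan, the Esm1 product, is a secreted proteoglycan made by angiogenic endothelium.

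Levels are given as log2 signal relative to the 75th percentile of the same array, so that 0 is that percentile and a difference of 1 is a doubling. They compare arrays for 1 probe, and are not compared between genes. The 75th percentile lay between 268.8 and 769.1 signal units over the 24 arrays. Between 51.1% and 60.8% of probes were well above background, the scanner software's test of a spot against its surroundings. The number of arrays limits the precision. The arrays lay on 4 slides, and no slide held both genotypes, so genotype and slide cannot be told apart. Wild-type arrays had 75th percentiles of 268.8 to 459.5, and knockout arrays had 382.7 to 769.1. The scanner software's fitted slope for spiked-in control RNA was 0.884 to 0.908 on wild-type and 0.932 to 0.981 on knockout arrays, without overlap. The part of this slope in the genotype comparisons was not tested. The Il17a and Il17f probes passed that test on 0 arrays of either genotype, and so did not check the knockout label. The third array of the infused wild-type group on plain water stood apart in several genes below, and the plain-water changes of Esm1, Sele, Selp, Vcam1 and Edn1 in wild type are given with and without it.

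The array reads each gene through probes of 60 bases. The first 30 bases of the probes that carry the main results are shown here, because 2 probes named Vwf gave different answers and the rest measured the genes that moved most. Positions are those of the array's annotation, build mm9.
Esm1 probe, chr13:114008204-114008263: aatgtactcgtgggaagatccgtgaatgta
Sele probe, chr1:165987726-165987785: gagtatttaacggtagctggttttaagaca
Selp probe, chr1:166079660-166079719: atgcctgctttaagatctcctgggtcttcc
Vcam1 probe, chr3:115813216-115813275: tatatttttataggcaaatggtaaagaggt
Edn1 probe, chr13:42403101-42403160: cagtaaaaatatgttcccgtatgtattgta
Vwf brighter probe, chr6:125636551-125636610: caagtgaggcctgtgcagctacagcggatt
Vwf dimmer probe, chr6:125542106-125542165: tagttaaacagaacaacagtgaagggcgga
The annotation places the Vcam1 probe on the minus strand and the others on the plus strand.

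Promoter sequence was matched by symbol for 5 of the 10 genes, Esm1, Icam1, Sele, Selp and Edn1, in RefSeq's build GRCm38.p6. These are shown because all 5 were called higher with infusion in wild-type aorta on salt. Each line runs from 250 bases before the annotated start to 30 bases after it. Capitals mark a match to TATAAA or GGAAGT, searched on both strands over windows of 300 bases that reach 50 bases past the start.
Esm1 promoter, chr13:113209409-113209688, plus strand: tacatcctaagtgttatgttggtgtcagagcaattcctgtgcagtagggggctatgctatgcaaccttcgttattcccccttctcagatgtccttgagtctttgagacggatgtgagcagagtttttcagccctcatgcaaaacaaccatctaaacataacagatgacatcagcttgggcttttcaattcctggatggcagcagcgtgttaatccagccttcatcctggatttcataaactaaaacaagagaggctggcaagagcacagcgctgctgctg
Icam1 promoter, chr9:21015690-21015969, plus strand: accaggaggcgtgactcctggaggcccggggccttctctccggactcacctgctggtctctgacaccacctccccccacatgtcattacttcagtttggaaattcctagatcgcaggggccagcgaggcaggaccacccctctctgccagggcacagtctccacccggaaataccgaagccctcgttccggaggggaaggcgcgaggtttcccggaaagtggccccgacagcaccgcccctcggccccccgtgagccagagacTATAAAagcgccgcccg
Sele promoter, chr1:164047984-164048263, plus strand: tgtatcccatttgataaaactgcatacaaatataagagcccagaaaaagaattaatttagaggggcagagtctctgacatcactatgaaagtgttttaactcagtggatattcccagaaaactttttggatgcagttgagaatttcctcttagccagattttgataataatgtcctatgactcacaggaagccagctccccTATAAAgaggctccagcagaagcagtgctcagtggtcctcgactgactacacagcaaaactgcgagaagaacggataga
Selp promoter, chr1:164115014-164115293, plus strand: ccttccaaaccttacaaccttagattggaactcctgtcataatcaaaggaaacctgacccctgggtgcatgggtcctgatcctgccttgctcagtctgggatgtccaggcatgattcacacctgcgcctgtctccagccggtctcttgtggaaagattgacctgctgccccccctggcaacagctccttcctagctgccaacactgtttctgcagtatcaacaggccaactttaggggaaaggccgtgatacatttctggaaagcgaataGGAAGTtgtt
Edn1 promoter, chr13:42301226-42301505, plus strand: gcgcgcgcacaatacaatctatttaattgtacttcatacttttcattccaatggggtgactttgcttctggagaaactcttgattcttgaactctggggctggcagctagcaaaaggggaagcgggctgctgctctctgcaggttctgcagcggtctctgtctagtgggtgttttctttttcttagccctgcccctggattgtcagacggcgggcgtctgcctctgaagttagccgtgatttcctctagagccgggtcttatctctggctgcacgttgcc
TATAAA, the core of the TATA box, stood in the Sele and Icam1 windows, 2 of 5, against 13.6% of all 32851 promoters in the table. In Sele it began 49 bases before the annotated start, and in Icam1 it lay after it. GGAAGT, an ETS core sequence, stood in 1 of 5 windows, that of Selp after the start, against 23.8% of all promoters. The kB consensus, the binding sequence of NF-kB, had a match in 0 of these 5 windows and in 8.46% of all promoters, which says only that those letters were not in these windows. The Sele and Selp starts lie 67030 bases apart on chromosome 1 and read in the same direction. The matches did not overlap one another, and none is shown to be a binding site.

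**Figure D1:**
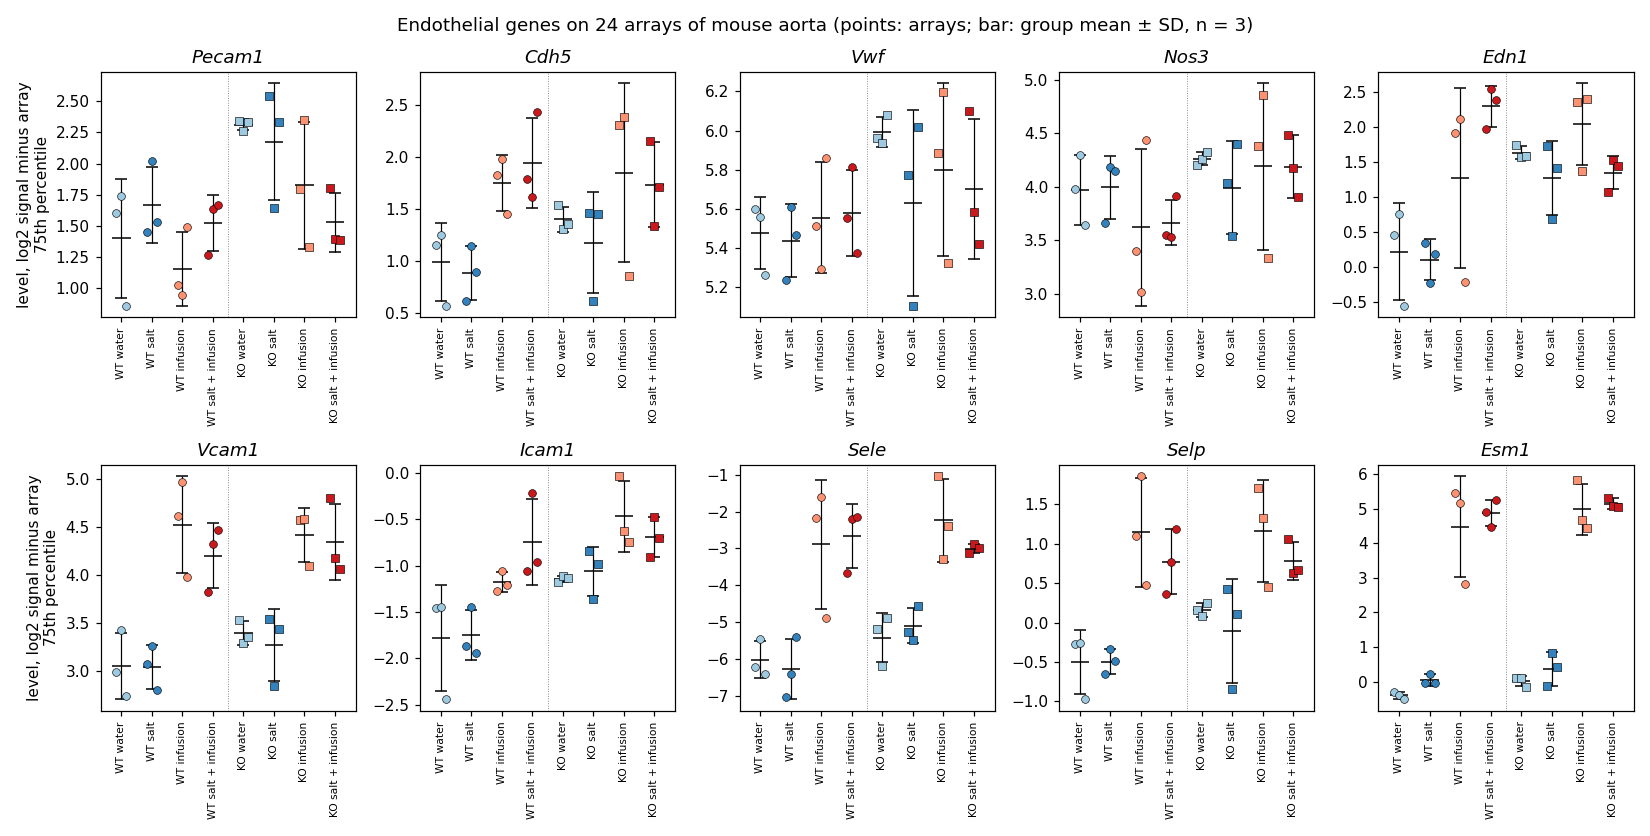
Level of each gene on the 24 arrays (y axis, log2 signal minus the array's 75th percentile; scales differ between panels) in the 8 groups (x axis; circles wild type, squares knockout; bars, mean and SD of 3 arrays). Esm1 sits between -0.51 and 0.82 on the 12 uninfused arrays and between 2.81 and 5.83 on the 12 infused ones, while Vwf stays between 5.10 and 6.20 on all 24; Sele was not well above background on the uninfused arrays.

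Infusion raised activation genes in both genotypes, while Pecam1, Nos3 and the brighter Vwf probe were not called higher in any infusion comparison. The dimmer Vwf probe was called higher in most of them, as given below. On plain water, 4 of the 10 genes rose in wild-type aorta (Esm1, Vcam1, Sele and Selp) and the same 4 rose in the knockout. The background was high: infusion changed 25.9% of all genes tested in wild type (12.2% higher, 13.7% lower) and 30.6% in the knockout (14.4% higher, 16.2% lower). On salt, 7 of the 10 rose in wild type, where Icam1, Cdh5 and Edn1 joined, against a background of 32.9% (16.3% higher, 16.6% lower). In the knockout on salt 3 rose, Esm1, Vcam1 and Sele, against 25.2% (13.4% higher, 11.8% lower). Calls are at an adjusted p under 0.05 from limma, with Benjamini-Hochberg adjustment over all 23506 genes. Sele, in every count of risen genes here, passed the filter on dim probes only through infused groups. Set against the uninfused group on plain water, salt with infusion raised 7 of 10 in wild type (background 28.7%, 13.2% higher and 15.5% lower). In the knockout it raised 3 and lowered 1, Pecam1 (background 25.5%, 12.7% higher and 12.8% lower). This last pair of comparisons shares its infused arrays with the comparisons on salt, and its control arrays with those on plain water. The median log2 change of the 10 genes was 0.91 in wild type on water and 1.11 on salt, and 0.56 and 0.46 in the knockout, beside medians over all genes of -0.02, -0.06, -0.04 and -0.02. These medians of the 10 include the fitted Sele changes, whose uninfused side was not well above background, so they would be lower without Sele.

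**Figure D2:**
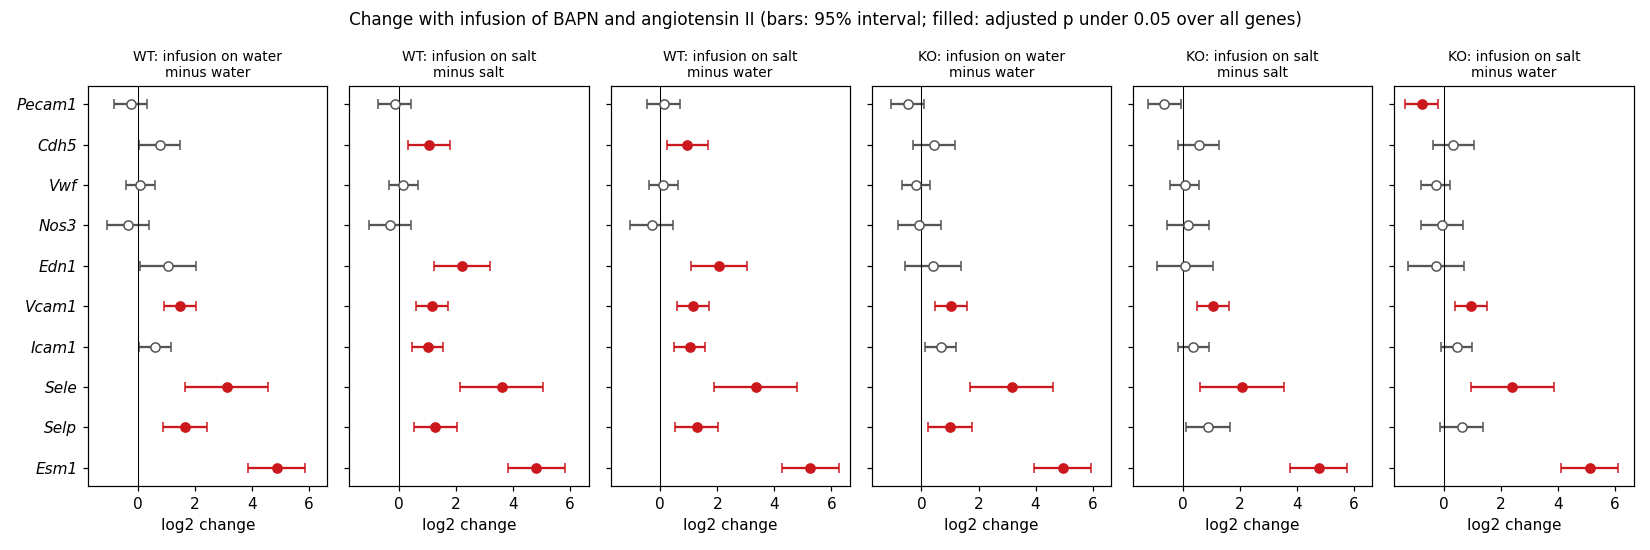
Log2 change with infusion (x axis) of the 10 genes (rows) in 6 comparisons (panels); points are limma estimates over 3 against 3 arrays, bars their 95% intervals, and filled points passed an adjusted p of 0.05. Esm1 lies between 4.78 and 5.26 in all 6 panels, and Edn1 is filled only in the 2 panels of wild type infused on salt.

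Esm1 had the largest change in all 6 infusion comparisons among the 9 genes measured with and without infusion, Sele being only bounded without it. In wild-type aorta its levels were -0.30, -0.37 and -0.51 on plain water, -0.04, 0.24 and -0.04 on salt, 5.46, 5.17 and 2.81 with infusion, and 4.89, 4.48 and 5.24 with salt and infusion. In the knockout they were 0.10, 0.12 and -0.14 on water, -0.13, 0.82 and 0.42 on salt, 5.83, 4.66 and 4.43 with infusion, and 5.31, 5.06 and 5.06 with both. Infused and uninfused arrays did not overlap, and the lowest infused array, the third of wild type on plain water, was still well above every uninfused one. The rise was 29.3-fold in wild type on plain water (log2 change 4.87, SE 0.48, limma adjusted p = 3.98e-05) and 30.8-fold in the knockout (log2 change 4.95, SE 0.48, limma adjusted p = 1.58e-05). Without the third infused array the wild-type log2 change on water was 5.71 (adjusted p = 3.08e-08). On salt the rise was 28.2-fold and 27.4-fold. The difference between genotypes in this change was 0.07 on water (95% interval -1.35 to 1.49) and -0.04 on salt (-1.46 to 1.38), both short of the threshold. Esm1 stayed called in every alternative tried for these 6 comparisons, with log2 changes from 4.32 to 5.93.

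The selectins start leukocyte rolling, and of them only Selp was well above background without infusion. Sele was not well above background on any of the 12 uninfused arrays, so its uninfused level is only a bound. With infusion its levels in wild type were -2.17, -1.62 and -4.87 on water and -3.66, -2.19 and -2.14 on salt. In the knockout they were -1.05, -3.29 and -2.38 on water and -3.13, -2.89 and -3.00 on salt. It was well above background on 11 of these 12 arrays, the exception being the third infused wild-type array on plain water. Against the dimmest signal that counts as well above background, Sele rose at least 3.00-fold in wild type on water and at least 3.89-fold on salt. The bounds in the knockout were at least 5.001-fold on water and at least 3.39-fold on salt. The limma adjusted p was 0.00375 and 0.00111 in wild type and 0.00257 and 0.0349 in the knockout, on fitted log2 changes of 3.12, 3.60, 3.17 and 2.08. Sele passed the filter on dim probes only through infused groups, and its uninfused values were not well above background. These p-values therefore add no separate support to the bounds. In wild type on water the fitted change was 4.12 without the third infused array (adjusted p = 7.91e-05) and 2.49 without the second (adjusted p = 0.035). In the knockout on water it was 2.57 without the first. Leaving out any 1 of 5 of the 6 arrays (all but the third uninfused one) took the call on salt in the knockout past the threshold, to adjusted p between 0.0741 and 0.103. Background correction by normexp, which adds an offset of 50, left Sele changes of 0.76 in wild type on water (adjusted p = 0.0529) and 0.50 in the knockout on salt (adjusted p = 0.169).

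Selp read -0.27, -0.26 and -0.98 in wild type on water, -0.66, -0.34 and -0.48 on salt, 1.09, 1.86 and 0.48 with infusion, and 0.36, 0.77 and 1.19 with salt and infusion. In the knockout it read 0.16, 0.08 and 0.26, then 0.42, -0.85 and 0.11, then 1.71, 1.33 and 0.46, and then 1.06, 0.63 and 0.67 in the same order of groups. Every infused array of wild type lay above every uninfused one. In the knockout the infused arrays also lay above their own controls, on water and on salt. Selp rose 3.14-fold in wild type on water (log2 change 1.65, SE 0.36, limma adjusted p = 0.00344) and 2.41-fold on salt (1.27, adjusted p = 0.0129). Without the third infused array the change on water was 1.98 (adjusted p = 0.000676). In the knockout its log2 change on water was 1.00 (adjusted p = 0.0429), a call lost in 9 of 18 alternatives, among them leaving out any 1 of the 3 controls or of the first 2 infused arrays (adjusted p 0.0758 to 0.216). On salt in the knockout its log2 change was 0.89 (adjusted p = 0.079). In wild type on salt the call was lost without the third infused array (log2 change 1.06, adjusted p = 0.0719). P-selectin is also made by platelets. Of 10 platelet and megakaryocyte markers measured, 0 changed in wild type on water, where 25.9% of all genes did. On salt 2 rose, against 16.3% of all genes. In the knockout on water 1 rose, Pf4, by 1.60-fold, against 14.4% of all genes. On plain water the summed linear level of the 10 markers, with the array's 75th percentile as 1, was 47.3 to 60.3 on wild-type controls and 48.2 to 70.3 with infusion. On salt it went from 43.5 to 44.0 without infusion to 54.5 to 74.1 with it, and in the knockout on water from 51.2 to 58.5 to 62.3 to 77.9, with no overlap. Their part in the Selp values was not tested.

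VCAM-1 binds the integrin alpha4-beta1 on monocytes and lymphocytes, and its gene rose in all 6 infusion comparisons. Wild-type Vcam1 levels were 2.98, 3.42 and 2.74 on water, 3.06, 3.26 and 2.80 on salt, 4.62, 4.97 and 3.97 with infusion, and 3.82, 4.32 and 4.46 with salt and infusion. Knockout levels were 3.53, 3.29 and 3.35, then 3.54, 2.84 and 3.43, then 4.57, 4.58 and 4.09, and then 4.80, 4.17 and 4.06. Infused and uninfused arrays did not overlap in either genotype. The rise was 2.78-fold in wild type on water (log2 change 1.47, SE 0.27, limma adjusted p = 0.000955) and 2.03-fold in the knockout (1.02, SE 0.27, adjusted p = 0.00793). Without the third infused array the wild-type change was 1.75 (adjusted p = 0.000134). On salt the rise was 2.23-fold and 2.11-fold. The genotype difference in the change was -0.45 on water (95% interval -1.25 to 0.34) and -0.08 on salt (-0.88 to 0.71), neither past the threshold. A second Vcam1 probe was also called on water, in wild type (adjusted p = 0.00666) and in the knockout (0.99, adjusted p = 0.0101). On salt it was called in wild type (1.06, adjusted p = 0.00665), and in the knockout its 0.67 missed the threshold (adjusted p = 0.0746).

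ICAM-1 is the ligand of the leukocyte beta2 integrins. Icam1 read -1.45, -1.44 and -2.44 in wild type on water, -1.86, -1.45 and -1.95 on salt, -1.27, -1.06 and -1.21 with infusion, and -1.06, -0.21 and -0.96 with salt and infusion. In the knockout it read -1.17, -1.11 and -1.13, then -0.85, -1.36 and -0.98, then -0.04, -0.62 and -0.75, and then -0.91, -0.47 and -0.70. The third wild-type control array was the lowest, and the second array with salt and infusion was high. In wild type Icam1 rose 2.01-fold on salt (log2 change 1.01, SE 0.26, limma adjusted p = 0.00776), while on water its change was 0.60 (adjusted p = 0.0988). In the knockout the changes were 0.67 on water (adjusted p = 0.0591) and 0.37 on salt (adjusted p = 0.319). The difference between genotypes on salt was -0.64 (95% interval -1.41 to 0.14, adjusted p = 0.662), so a difference between the genotypes was not shown. Within slide 3 alone, with 2 infused and 3 uninfused wild-type arrays on salt, the change was 1.11 (adjusted p = 0.0612).

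Edn1 had the largest estimated genotype difference in the infusion change on salt among the 10, although that difference did not pass the test over all genes. Wild-type levels were 0.46, 0.76 and -0.56 on water, 0.35, -0.22 and 0.19 on salt, 1.92, 2.11 and -0.22 with infusion, and 1.97, 2.53 and 2.38 with salt and infusion. Knockout levels were 1.73, 1.56 and 1.59, then 1.72, 0.69 and 1.41, then 2.36, 1.36 and 2.40, and then 1.08, 1.52 and 1.44. In wild type on salt, all 3 infused arrays lay far above the uninfused ones, whereas on water the third infused array fell among the controls. In the knockout the uninfused arrays ran from 0.69 to 1.73, and infused and uninfused arrays overlapped on both kinds of water. Edn1 rose 4.57-fold in wild type on salt (log2 change 2.19, SE 0.47, limma adjusted p = 0.00226), a call kept in all 17 alternatives (2.02 to 2.35). On water the wild-type change was 1.05 (adjusted p = 0.108), and 1.79 (adjusted p = 0.00119) without the third infused array. The knockout changes were 0.41 on water (95% interval -0.57 to 1.39) and 0.07 on salt (-0.91 to 1.06). The genotype difference in the change on salt was -2.12 (95% interval -3.51 to -0.73), with an unadjusted p of 0.00489 and a limma adjusted p of 0.336, so it did not pass over all genes. Across the alternatives for that difference the estimate ran from -2.62 to -1.90 and the adjusted p from 0.0515 to 0.595. In that test 17 genes in all passed, 0.0723%, and 0 of the 10. With slide as a fixed block 1982 genes passed, 8.43%, and again 0 of the 10.

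Endothelin-1 acts through receptors and against nitric oxide, and the other genes of that system moved in both directions. Of 16 measured vasomotor genes, 6 rose and 3 fell in wild type with salt and infusion against plain water. Over all genes 13.2% rose and 15.5% fell there. Ddah1, which breaks down a nitric oxide synthase inhibitor, rose 16.4-fold (log2 change 4.03, adjusted p = 0.000315), and Gch1, which makes the synthase cofactor tetrahydrobiopterin, rose 2.96-fold. Gucy1a1, a subunit of the nitric oxide receptor guanylate cyclase, fell by 1.69 on the log2 scale. Nos3 itself ranged from 3.02 to 4.86 over the 24 arrays and passed the threshold in none of the 12 group comparisons. Its change with infusion was -0.35 in wild type on water (95% interval -1.09 to 0.39) and -0.07 in the knockout (-0.81 to 0.67). On salt it was -0.33 (-1.07 to 0.41) and 0.20 (-0.54 to 0.94). These intervals do not show that Nos3 was unchanged. A second Nos3 probe gave -0.45 and -0.11 on water, also short of the threshold.

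The identity genes split. Cdh5 read 1.15, 1.26 and 0.57 in wild type on water, 0.62, 1.14 and 0.89 on salt, 1.82, 1.98 and 1.46 with infusion, and 1.79, 1.62 and 2.43 with salt and infusion, so that infused and uninfused arrays did not overlap. It rose 2.08-fold on salt (log2 change 1.06, SE 0.35, limma adjusted p = 0.0268), and the call was lost without the first or the third salt array or without the third infused array (adjusted p 0.0652 to 0.137). Its 0.76 on water missed the threshold (adjusted p = 0.116). With salt and infusion against plain water it rose 1.94-fold (adjusted p = 0.0474), and that call was lost in 12 of 17 alternatives. In the knockout Cdh5 read 1.54, 1.31 and 1.36, then 1.47, 0.62 and 1.46, then 2.31, 2.39 and 0.86, and then 2.15, 1.34 and 1.71, with changes of 0.45 and 0.56 that did not pass. Without the third infused arrays its change on water in the knockout was 0.94 (adjusted p = 0.0159).

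Pecam1 was called higher with infusion in 0 of the 6 comparisons. It read 1.60, 1.74 and 0.86 in wild type on water, 1.45, 2.02 and 1.53 on salt, 1.02, 0.94 and 1.49 with infusion, and 1.27, 1.64 and 1.66 with salt and infusion, an overlapping set of values. Knockout levels were 2.35, 2.26 and 2.33, then 2.55, 1.65 and 2.34, then 1.80, 2.35 and 1.33, and then 1.80, 1.40 and 1.39. In the knockout, salt with infusion against plain water lowered Pecam1 (log2 change -0.78, SE 0.28, limma adjusted p = 0.0437), and all 3 infused arrays lay below the 3 controls. That call was lost in 9 of 16 alternatives. With slide as a fixed block, since those infused arrays and their controls lay on different slides, the change was -0.04 (adjusted p = 0.952). It was also lost without any 1 of the 3 controls or of the last 2 infused arrays (-0.81 to -0.71, adjusted p 0.0838 to 0.133).

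Vwf showed different pictures through its 2 probes. The brighter one, which matches the RefSeq transcript, lay between 5.24 and 5.61 on the 6 uninfused and between 5.30 and 5.86 on the 6 infused wild-type arrays. Its change was 0.08 on water (95% interval -0.43 to 0.59) and 0.14 on salt (-0.37 to 0.65) in wild type, and -0.19 and 0.07 in the knockout. The dimmer probe, named after an Ensembl transcript of Vwf, read -0.95, -0.90 and -1.09 in wild type on water and -0.11, -0.13 and -0.13 with infusion. It read -1.15, -0.87 and -0.81 on salt and 0.36, 0.51 and 0.96 with salt and infusion. In a fit over all probes it rose in wild type on salt (log2 change 1.55, SE 0.32, limma adjusted p = 0.00204) and in the knockout on water (0.92, adjusted p = 0.0402) and on salt (1.04, adjusted p = 0.0266). With salt and infusion against plain water it rose in wild type (1.59, adjusted p = 0.00199) and in the knockout (0.92, adjusted p = 0.0459). In wild type on water its change was 0.86 (adjusted p = 0.0598), although the 3 infused arrays lay above the 3 controls. The 2 probes lie on the same chromosome, and the files do not say which exon each one reads. Which of them follows the full Vwf message was not tested.

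**Figure D3:**
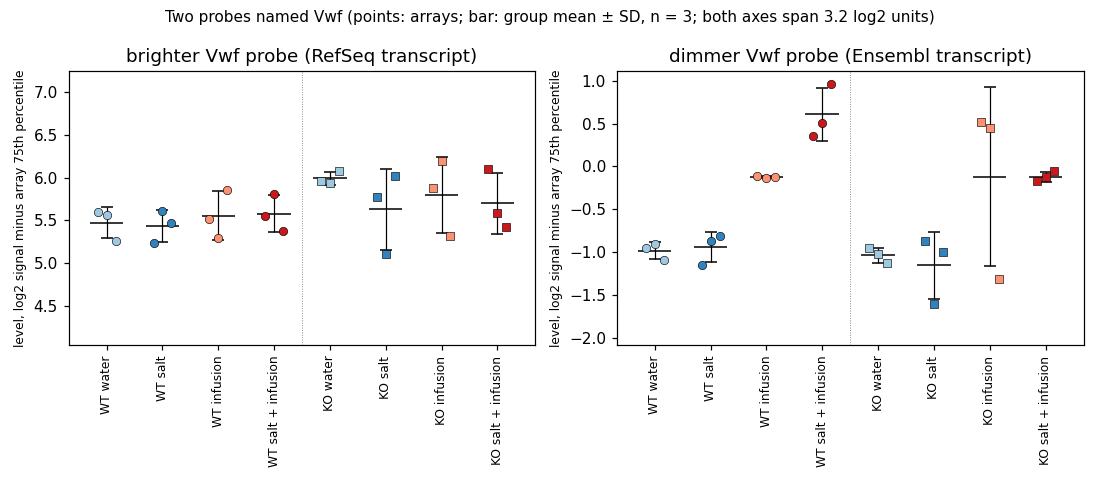
Level (y axis, log2 signal minus the array's 75th percentile) on each array of the brighter and the dimmer probe named Vwf, in the 8 groups (x axis; bars, mean and SD of 3 arrays). Both axes span the same number of log2 units; the brighter probe stays between 5.10 and 6.20, and the dimmer one goes from -0.98 on wild-type controls to 0.61 with salt and infusion, with the third infused knockout array on plain water at -1.32.

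Salt by itself gave no call among the 10 genes. In wild type and in the knockout, 0 genes of all those tested passed with salt alone (0% in each), with 495 and 713 genes at an unadjusted p under 0.05 and 0 of the 10 among them. Salt added to infusion likewise gave 0 calls in either genotype (0% each), with 1355 and 1064 genes under an unadjusted 0.05, of which 1 and 0 were among the 10. Over all genes these counts were not stable: in the knockout, salt under infusion gave 92 calls without the third infused array on water, 261 with slide as a fixed block and 399 without the third infused arrays of both genotypes. In wild type it gave 15 calls without the third array with salt and infusion. The tests of whether salt altered the effect of infusion gave 0 calls in wild type (0%, 1066 genes unadjusted) and in the knockout (0%, 1063 genes unadjusted), where slide as a fixed block gave 151. No alternative gave a call for any of the 10 in these comparisons. The size that could have been missed is set by the intervals: for Esm1 the change with salt alone was 0.45 in wild type (95% interval -0.56 to 1.45), and for Edn1 it was -0.12 (-1.10 to 0.87).

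Genotype was compared in 2 pairs of groups, and slide cannot be told apart from it in either. On plain water without infusion, 2 of the 10 genes were higher in the knockout, Pecam1 and Edn1, against 37.1% of all genes called (14.3% higher, 22.8% lower). The fitted difference was above 0 for all 10, with a median of 0.56 beside -0.02 over all genes. Sele is counted here and in the ranking of the third control array below, although it was not well above background on any of these control arrays. The share of all genes above 0 was not counted. Pecam1 was 1.88-fold higher (log2 difference 0.91, SE 0.28, limma adjusted p = 0.0147) and Edn1 2.65-fold higher (1.41, SE 0.47, adjusted p = 0.0248), and for both genes the groups did not overlap. The third wild-type control array was the lowest of its group for all 10 genes, and without it 0 of the 10 were called: Pecam1 differed by 0.64 (adjusted p = 0.103) and Edn1 by 1.02 (adjusted p = 0.14). The Edn1 call was also lost without any 1 of the knockout controls (adjusted p 0.0524 to 0.066). With salt and infusion, 0 of the 10 were called, beside 28.5% of all genes, and 0 of the 10 had an unadjusted p under 0.05. The fitted difference was above 0 for 7 of the 10, with a median of 0.03. For Edn1 it was below 0 (log2 difference -0.95, SE 0.47, limma adjusted p = 0.136). Its knockout levels there, 1.08 to 1.52, all lay below the wild-type levels, 1.97 to 2.53. The lack of calls does not show that the genotypes were alike. The test of a genotype difference in the effect of infusion on plain water gave 0 calls (0%, with 1541 genes and 0 of the 10 at an unadjusted p under 0.05). It gave 63 calls without the third infused knockout array, 14 without the third infused wild-type array, 43 without both and 46 with slide as a fixed block, 0 of them among the 10.

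Slide also bears on the infusion comparisons. Wild-type infused arrays on water lay on slide 4 and their controls on slide 3, and only the wild-type group with salt and infusion linked the 2 slides. With slide as a random block (correlation 0.484), Esm1 alone of the 10 stayed called there (log2 change 4.56, adjusted p = 0.00532), while calls over all genes went from 25.9% to 3.28%. Vcam1 was at 1.26 (adjusted p = 0.0771), Sele at 2.69 (adjusted p = 0.148) and Selp at 1.30 (adjusted p = 0.146). As a fixed block, with 1.12% of all genes called, the adjusted p was 0.0288 for Esm1 and 0.265 for Vcam1. The knockout comparisons with salt and infusion were split by slide too. Uninfused knockout arrays, on water or salt, all lay on slide 1, and those with salt and infusion all on slide 2. Only the infused knockout group on water linked these slides. Where 1 slide held both groups the changes were of the main size. Within slide 1 the knockout on plain water, 2 infused arrays against 3, gave 5.22 for Esm1, 1.19 for Vcam1, 3.24 for Sele and 1.36 for Selp, all 4 called. Within slide 3 wild type on salt gave 4.63 for Esm1, 1.03 for Vcam1, 3.34 for Sele, 1.06 for Selp and 2.15 for Edn1, all 5 called. For this comparison these are the same arrays as without the third infused array, which lay on slide 4, so the 2 checks are not separate. In that other fit Selp was also at 1.06, and its call was lost (limma adjusted p = 0.0719). Icam1, called in the main fit, was not called within slide 3 (limma adjusted p = 0.0612).

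Of 30 other endothelial identity genes, 6 rose and 0 fell in wild type with salt and infusion against plain water, where 13.2% of all genes rose and 15.5% fell. Without the third infused array 3 were called. In wild type 5 rose and 2 fell with infusion on water, and 8 rose and 0 fell on salt. Over all genes 12.2% rose and 13.7% fell on water, and 16.3% rose and 16.6% fell on salt. With salt and infusion the median change of the 30 was 0.17 beside -0.07 for all genes. Eng, a TGF-beta co-receptor, rose 1.77-fold (limma adjusted p = 0.000886), Jam2, a junction protein, rose 2.52-fold (adjusted p = 0.00635), and Emcn, an endothelial sialomucin, rose as well (adjusted p = 0.00156). In the knockout on water 5 of the 30 rose and 0 fell, where 14.4% of all genes rose and 16.2% fell. Of the 30, 9 were called without the third infused array, and 3 without the first infused or without the first or second control array. The summed linear level of the 30 was 267.0 to 310.7 on wild-type controls and 267.9 to 314.9 with salt and infusion, and 290.2 to 313.7 and 231.4 to 296.0 in the knockout, on the same scale. Over 6 defining endothelial markers, Pecam1, Cdh5, Tek, Tie1, Kdr and Emcn, it was 15.2 to 16.7 on wild-type controls and 21.0 to 25.4 with salt and infusion, without overlap, and 17.6 to 20.7 and 16.9 to 21.5 in the knockout. In whole aorta, fewer cells of a type and less RNA per cell cannot be told apart.

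Genes of sprouting endothelium, the company Esm1 is known to keep, moved in both directions. Of 16, 6 rose and 3 fell in wild type with salt and infusion (9 called, 5 without the second control array). Over all genes 13.2% rose and 15.5% fell there. Pgf, a growth factor of the VEGF family, rose 3.84-fold (limma adjusted p = 9.7e-05), Nid2, a basement membrane protein, 3.65-fold (0.00034) and Plaur, the urokinase receptor, 3.88-fold (0.00126). In the knockout on water 5 rose and 3 fell, where 14.4% of all genes rose and 16.2% fell. Pgf rose 4.80-fold there, and Angpt2, an antagonist of the Tie2 receptor, fell by 1.18 on the log2 scale (adjusted p = 0.00377).

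Inducers and partners of the adhesion molecules were called higher in part. Of 14 measured inflammatory inducers and NF-kB feedback genes, 4 rose and 0 fell in wild type with salt and infusion, and 2 were called after normexp correction. Over all genes 13.2% rose and 15.5% fell in that comparison, which holds for the next 2 lists too. Tnf rose at least 1.47-fold (limma adjusted p = 0.00178; 2 of 3 infused arrays well above background), Tnfrsf1b, a TNF receptor, 2.43-fold, and Nfkbie, an NF-kB inhibitor, 1.62-fold. Of 12 leukocyte partners of the adhesion molecules, 7 rose and 0 fell, with a median of 1.04. Itgb2, the beta2 integrin chain that binds ICAM-1, rose 2.99-fold (adjusted p = 0.00269), and Itgb1, the chain that binds VCAM-1 with alpha4, 1.73-fold (0.000565). In the knockout on water 4 of the 12 rose, 10 without the third infused array and 2 without the first. Over all genes 14.4% rose there in the main fit. Of 13 measured flow-responsive and antithrombotic genes, 3 rose and 2 fell in wild type with both treatments: Procr, the endothelial protein C receptor, rose 2.02-fold (adjusted p = 0.00535), and Entpd1, an ATP-degrading ectoenzyme, fell by 1.01 on the log2 scale (adjusted p = 0.000584). In wild type on plain water these 6 lists had 4 to 10 calls each, where 25.9% of all genes were called. With slide as a random block they had 0 to 2, and the share over all genes fell as given above.

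Markers of other cells moved in the same comparisons. Over all genes 12.2% rose and 13.7% fell in wild type on water, and 13.2% rose and 15.5% fell with salt and infusion. In the knockout on water 14.4% rose and 16.2% fell. Of 11 measured macrophage and monocyte markers, 10 rose in wild type on water and 7 with salt and infusion, and 7 rose in the knockout on water; Cd68 rose 2.98-fold, 2.81-fold and 3.98-fold. Their summed linear level was 154.4 to 203.2 on wild-type controls, 213.9 to 247.9 with infusion and 190.9 to 213.6 with salt and infusion. In the knockout it was 116.3 to 130.5 on controls and 142.4 to 198.9 with infusion. Of 10 fibroblast markers 5 fell and 2 rose in wild type on water, with sums of 628.3 to 766.2 on controls and 427.3 to 557.7 with infusion. Of 10 smooth muscle markers 3 fell, with sums of 2346 to 3025 and 2062 to 2412. Of 7 measured neutrophil markers 1 rose, S100a9, at 11.5-fold, while Ly6g changed by 0.54 and did not pass. Erythroid markers gave 0 calls of 5, mesothelial 0 of 8 and adipocyte 0 of 9 there, although the adipocyte sum was 25.2 to 45.4 on controls and 18.3 to 24.4 with infusion, without overlap. Of 4 measured lymphatic endothelial markers 2 rose, Lyve1 among them at 1.42-fold, and the defining lymphatic genes Prox1 and Flt4 did not pass the filter on dim probes. VCAM-1 and ICAM-1 are made by other cells too, and the part of these cells in the changes of the 10 genes was not tested.

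Correlations of the 10 genes are given as descriptions over 24 arrays, which share the scaling and the group differences. Over all 24, Vcam1 correlated with Selp at a Pearson r of 0.95, and with Esm1 at 0.90. Sele is left out here, as it was well above background on 11 of the 24 arrays. Pecam1 correlated with Esm1 at -0.38 and with Vwf at 0.72. After the group means were taken off, so that only differences between replicate arrays remained, Pecam1, Vwf and Nos3 still went together (r from 0.82 to 0.83), and Vcam1 went with Selp (0.87) and Cdh5 with Selp (0.85). Esm1 and Edn1 went together less closely (0.55). On the third infused wild-type array on water, Esm1 and Edn1 were 1.67 and 1.48 below their group means, and Nos3 was 0.82 above. On the third infused knockout array on water, the only one of its group on slide 2, Cdh5 and Nos3 were 0.99 and 0.85 below theirs.

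**Figure D4:**
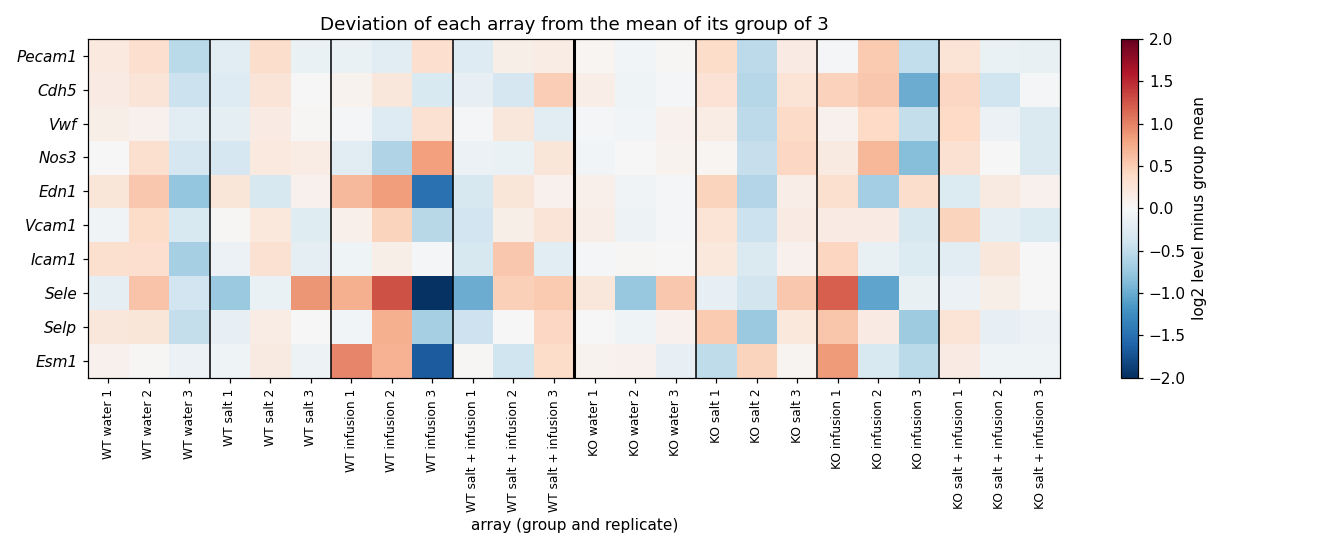
Deviation of each array (columns, by group and replicate) from the mean of its group of 3, in log2 units (colour), for the 10 genes (rows). The third wild-type array with infusion on plain water is low for Esm1, Sele and Edn1 and 0.82 above the mean for Nos3; a group of 3 cannot say which of its arrays is typical.

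The genes whose pattern over the 24 arrays was most like each of the 10 were sought among 13232 genes well above background on all arrays. For Esm1 they were Psat1 (r = 0.99), Timp1 and Col8a1 (both 0.98), a serine synthesis enzyme, an inhibitor of matrix metalloproteinases and a collagen chain. For Vcam1 they were Selp (0.95), Sting1 and Plk2 (both 0.94), and for Selp they were Vcam1, Cd93 (0.93) and Sting1 (0.92). For Cdh5 they were Cd93 (0.96), Notch4 and Myzap (both 0.95), of which Cd93 and Notch4 are known endothelial genes. Pecam1 was most like Plscr4 (0.91), AU021092 and She (both 0.90), and Nos3 most like She (0.89), Megf6 (0.88) and Dhh (0.87). Vwf was most like Ptprb (0.83), the endothelial receptor phosphatase, then Arhgap31 and Enpp6 (both 0.82). Icam1 was most like Klhl6 (0.89), Bmp4 (0.88) and Serpinb6b (0.87). Edn1 was most like Sfpq (0.88), Ccn2 and Pkp2 (both 0.87). Sele could not be ranked, as it was not well above background on every array.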

How the data were processed

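Array intensity values were taken from the deposited scanner files (Agilent Feature Extraction 10.7.1.1, per the file headers; 9.5.1.1 per the submitters' processing notes), whose processed signal is background-subtracted. Spot intensities were taken to log2, the array's 75th percentile was subtracted, and each probe got the mean of its spots after removal of controls and of 2910 outliers. Of 55681 probes, 33379 were kept, those that stood well above background in every one of the 3 arrays of some group and had 2 or more values in every group. The brightest probe stood for a gene. 27235 probes were named by accession through RefSeq GRCm38.p6.

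All 24 arrays entered 1 limma 3.58.1 fit (R 4.3.3) without covariates, tested on simulated data. 12 comparisons between groups and 4 differences of comparisons were tested two-sided, with Benjamini-Hochberg adjustment over 23506 genes. The authors' deposited table of intensity values was quantile-normalised (every column had a median of 30.982) and served as an alternative, beside other normalization, filters, probe choice, slide, replicate block and arrays left out. 95% intervals are limma's, unadjusted. Replicate numbers did not pair the arrays: in 0 of 12 comparisons did every same-numbered pair correlate above 0.1.

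The 10 genes and 15 lists were chosen with earlier results of these data known. Named besides the 10 were genes among the up to 4 of smallest p called in each list in 3 infusion comparisons, the first 3 markers of other cell types, and the 3 genes most like each of the 10. Of the genes this rule names, 1 is not reported here. Figures were drawn with matplotlib 3.10.9.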

Additional observations from a re-analysis of the deposited data

How the results depend on the processing

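Of 31 called changes of the 10 genes, 15 stayed called in every alternative that was run, and over 514 repeats 446 kept their call, 68 lost it and 0 turned direction. Calls of Sele are in each of these counts except the last, although its p-values add no separate support, as given above. For wild type infused on plain water, 4 genes were called (25.9% of all genes), against 2 with only the compared groups fitted (5.26%), 1 with slide as a fixed block (1.12%), 1 with slide as a random block (3.28%), and 7 (40.1%) without the third infused arrays of both genotypes, a setting chosen after seeing the data. For the knockout infused on salt, 3 (25.2% of all genes) became 5 with slide as a fixed block (36.8%). For the knockout with salt and infusion against plain water, 4 (25.5%) became 2 with slide as a random block (26.3%), and leaving out 1 array gave 2 to 3. For genotype without infusion, 2 (37.1%) became 5 with only the compared groups fitted (42.2%) and 0 with slide as a random block (8.38%), and leaving out 1 array gave 0 to 3. For genotype with salt and infusion, 0 (28.5%) became 1 with only the compared groups fitted (21.8%). The cause was not tested in any of these. With a replicate block, the counts were 4 for wild type infused on plain water, 6 for wild type with salt and infusion, where Cdh5 was lost, and 3 for the knockout with salt and infusion, where Pecam1 was lost; no other call changed under the block. Slide as a fixed block could not be fitted for the genotype comparisons, and arrays of 1 slide held both groups in 7 comparisons. With probes required on all arrays Sele was not tested. Groups of 3 arrays, and for Sele its signal over background, limit what could be detected.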
